A study of Mus musculus with 8 samples.

Results

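The genes described here control the exit of cells from the G1 phase of the cell cycle: the 3 D cyclins (Ccnd1, Ccnd2, Ccnd3), the 2 E cyclins (Ccne1, Ccne2), their kinases (Cdk2, Cdk4, Cdk6) and the pocket proteins Rb1 and Rbl1. They were chosen by symbol, and all 10 of 10 were found among the 13681 symbols of the deposited expression table. RNA was sequenced from 8 thymic lymphomas of C57BL/6 mice that all lacked p53 (p53-/-), treated at 10 weeks of age with an adenovirus given into the tumour, and sampled 48 hours afterwards. A group of 3 libraries was labelled ΔNp73Δ/Δ;p53-/- and received Ad-CRE-mCherry, a virus carrying Cre recombinase and the red fluorescent protein mCherry. Another 3 libraries were labelled ΔNp63Δ/Δ;p53-/- and received the same virus. The 2 control libraries were labelled ΔNfl/fl;p53-/- and received Ad-mCherry, without Cre, and their label does not say which gene is floxed. ΔNp63 and ΔNp73 are forms of the p53 relatives p63 and p73 that lack the N-terminal transactivation domain. Control differed from the other groups in virus as well as in genotype, so an effect of Cre and an effect of a deletion cannot be told apart in any comparison with control. Whether the libraries of a group came from different mice is not in the labels, so each p-value covers only the spread between these samples, which may be technical.

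In a resting cell the pocket proteins hold E2F transcription factors inactive and keep the genes for DNA synthesis off. Growth signals induce D cyclins, which activate Cdk4 and Cdk6 to phosphorylate the pocket proteins, and the E2F factors that are set free switch on Ccne1, Ccne2 and the replication genes. E cyclins with Cdk2 then complete the phosphorylation and start S phase. In developing thymocytes Ccnd3 is the D cyclin best known for the expansion after pre-T cell receptor signalling, and Ccnd2 and Cdk6 are also well expressed in lymphoid cells.

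The bases upstream of 2 members and of both starts of Ccnd3 show how E2F motifs are placed. The 250 bases before the start were taken from RefSeq promoters of build GRCm38.p6 (the authors' files used mm9, so no position of theirs is given), which held 7 windows for 6 members: Ccnd3 (2 windows), Ccne1, Cdk2, Cdk4, Cdk6 and Rbl1. Ccnd1, Ccnd2, Ccne2 and Rb1 had no entry. The E2F motif was searched on both strands as TTTCCCGC, TTTCGCGC, TTTGCCGC and TTTGGCGC, and overlapping matches were counted. At least 1 of the 4 was in 611 of 32851 promoters of this length (1.86%), in 6 of 29 windows of the S-phase E2F target list used below (20.7%) and in 2 of the 7 members' windows (28.6%). Rbl1 held TTTCGCGC with its first base at -18, at chr2:157204535-157204784 (minus strand). Cdk2 held TTTCCCGC on the opposite strand, so that it reads GCGGGAAA here, with its first base at -140, at chr10:128705052-128705301 (minus strand). The windows of Ccnd3, at chr17:47504801-47505050 for the upstream start and chr17:47593217-47593466 for the downstream start (plus strand), held none of the 4 motifs. Those of Ccne1, Cdk4 and Cdk6 held none either and are not shown. A match is a run of letters and not a measured binding site. The motif is in capitals, in the 5′ to 3′ direction of the gene.
Rbl1: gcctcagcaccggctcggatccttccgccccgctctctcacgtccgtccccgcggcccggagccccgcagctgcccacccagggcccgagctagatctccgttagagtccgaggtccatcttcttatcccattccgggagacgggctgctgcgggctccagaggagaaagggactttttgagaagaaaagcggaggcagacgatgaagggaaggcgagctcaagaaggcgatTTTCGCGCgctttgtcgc
Cdk2: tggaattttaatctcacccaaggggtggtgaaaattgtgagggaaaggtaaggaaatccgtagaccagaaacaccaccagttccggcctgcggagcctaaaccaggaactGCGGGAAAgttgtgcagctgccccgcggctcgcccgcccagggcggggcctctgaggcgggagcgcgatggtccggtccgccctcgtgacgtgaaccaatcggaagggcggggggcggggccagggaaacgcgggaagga
Ccnd3, downstream start: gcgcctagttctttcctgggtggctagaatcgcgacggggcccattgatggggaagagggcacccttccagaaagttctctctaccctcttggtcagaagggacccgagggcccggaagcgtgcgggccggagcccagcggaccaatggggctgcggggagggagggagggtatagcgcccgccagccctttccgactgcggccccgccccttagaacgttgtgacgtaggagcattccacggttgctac
Ccnd3, upstream start: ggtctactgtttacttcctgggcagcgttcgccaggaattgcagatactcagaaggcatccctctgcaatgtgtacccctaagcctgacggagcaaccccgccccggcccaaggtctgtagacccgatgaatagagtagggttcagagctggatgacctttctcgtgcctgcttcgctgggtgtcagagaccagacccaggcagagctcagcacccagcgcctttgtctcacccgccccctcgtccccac

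Levels are FPKM, fragments scaled to transcript length and library size, which the authors deposited after quantile normalisation; the depth of the libraries is unknown. ΔNp63-labelled replicate 2 stood apart from the other libraries of its group. Across 12921 genes on the log2(FPKM + 1) scale, its correlation with the remaining 7 libraries had a median of 0.847, against 0.915 to 0.956 for each of those. With its own group it was 0.847, and with the controls it was 0.900 to 0.915. The other libraries given Cre had correlations of 0.885 to 0.931 with the controls, so replicate 2 was no further from control than they were. The tests of the 10 genes against control are therefore given with and without this library. All groups share an estimate of the spread, so leaving it out changes the p-values of the ΔNp73-labelled comparison with control but not its fold changes. Most tests of other genes are given without it only, and it is said how many passed with it. Trp63, the gene targeted in the ΔNp63-labelled group, was listed with 4 entries, each starting at the internal promoter from which ΔN transcripts begin. The highest of them was at 13.8, 11.3 and 6.38 FPKM in the ΔNp73-labelled libraries, 6.57, 1.05 and 9.91 FPKM in the ΔNp63-labelled libraries and 5.21 and 3.38 FPKM in control. In that entry ΔNp63-labelled replicates 1 and 3 lay above control, and in the other 3 entries their range overlapped that of control. The next entry, for example, was at 11.5, 9.03 and 10.4 FPKM in the ΔNp73-labelled libraries, 3.72, 0.777 and 5.91 FPKM in the ΔNp63-labelled libraries and 3.44 and 7.37 FPKM in control. No entry had both of these replicates below both controls, so the groups are called by their labels throughout. No entry of the gene for p73 was analysed here.

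The D cyclins differed from control in composition as well as in amount. In all 6 libraries given Cre, Ccnd3 lay below and Ccnd1 above both controls, while Ccnd2 was higher in 5 of them and lowest of all in ΔNp63-labelled replicate 2. Ccnd3, on chromosome 17, encodes cyclin D3 and was the most abundant of the 10 genes in every group mean. Its level was 81.8, 77.3 and 122 FPKM in the ΔNp73-labelled libraries, 105, 87.4 and 134 FPKM in the ΔNp63-labelled libraries and 337 and 312 FPKM in control. No library given Cre came near the lower control. The means were 93.8 ± 24.8 FPKM (SD, n = 3) in the ΔNp73-labelled, 108.9 ± 23.5 (SD, n = 3) in the ΔNp63-labelled and 324.4 ± 18.1 (SD, n = 2) in the control group. The log2 fold change against control was -1.81 (SE 0.26, limma adjusted p = 0.0653) for the ΔNp73-labelled group and -1.59 (SE 0.26, limma adjusted p = 0.131) for the ΔNp63-labelled group, on the log2(FPKM + 1) scale. Neither passed the threshold of 0.05 with all 8 libraries. Without ΔNp63-labelled replicate 2, Ccnd3 fell in both comparisons, by 1.81 (limma adjusted p = 0.00178) and by 1.44 (limma adjusted p = 0.00704).

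Ccnd1, on chromosome 7, encodes cyclin D1, which is low in most lymphoid cells and common in epithelial and stromal cells. It was at 8.85, 10.8 and 11.9 FPKM in the ΔNp73-labelled libraries, 8.11, 12.8 and 8.34 FPKM in the ΔNp63-labelled libraries and 4.48 and 3.82 FPKM in control. Groups given Cre did not overlap with control, and the ΔNp63-labelled replicate 2 had the highest value of the 8. The ΔNp73-labelled mean of 10.5 ± 1.54 FPKM was 2.54 times the control mean of 4.15 ± 0.461 FPKM, and the ΔNp63-labelled mean of 9.74 ± 2.62 FPKM was 2.35 times it. The log2 fold change was 1.16 (SE 0.22, limma adjusted p = 0.0787) in the ΔNp73-labelled and 1.04 (SE 0.22, limma adjusted p = 0.191) in the ΔNp63-labelled group. Without ΔNp63-labelled replicate 2, Ccnd1 rose in both comparisons, by 1.16 (limma adjusted p = 0.00177) and 0.84 (limma adjusted p = 0.00963).

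Ccnd2, on chromosome 6, encodes cyclin D2, a target of cytokine signals in lymphocytes. It was at 82.8, 87.7 and 90.7 FPKM in the ΔNp73-labelled libraries, 62.0, 11.3 and 82.5 FPKM in the ΔNp63-labelled libraries and 50.1 and 53.3 FPKM in control. All 3 ΔNp73-labelled libraries lay above control and above all ΔNp63-labelled ones, while the ΔNp63-labelled group spanned the control values. The spread of that group, 51.9 ± 36.7 FPKM (SD, n = 3), came down to 72.3 ± 14.5 (SD, n = 2) without its replicate 2. With all libraries the log2 fold change was 0.74 (SE 0.72, limma adjusted p = 0.574) in the ΔNp73-labelled and -0.39 (SE 0.72, limma adjusted p = 0.86) in the ΔNp63-labelled group. Without replicate 2 it was 0.74 (limma adjusted p = 0.00734) and 0.46 (limma adjusted p = 0.0629), so Ccnd2 rose in the ΔNp73-labelled comparison, and the sign in the ΔNp63-labelled one turned.

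**Figure D1:**
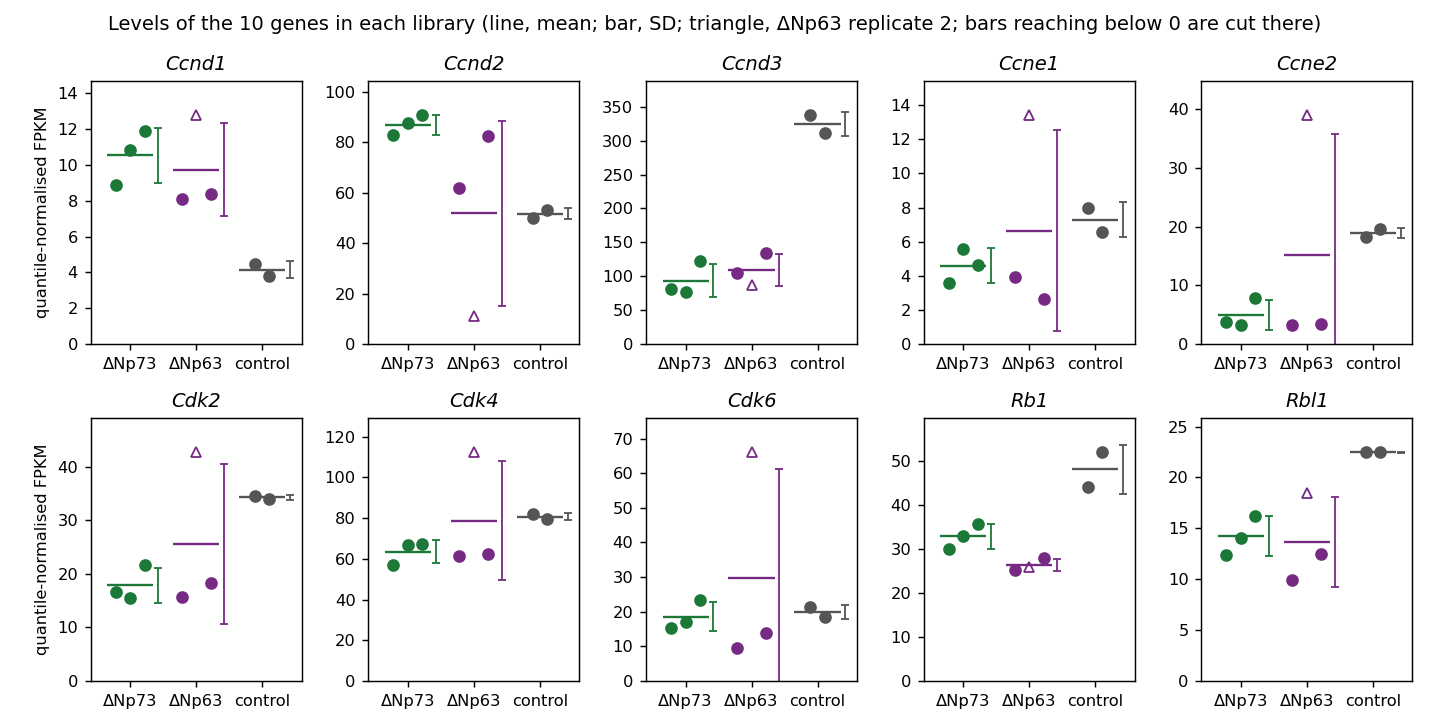
Level of each of the 10 genes in quantile-normalised FPKM (vertical axis, from 0), with 1 point per library in the ΔNp73-labelled, ΔNp63-labelled and control groups; lines are group means, bars the SD, cut at 0, and the open triangle is ΔNp63-labelled replicate 2. Ccnd3 lay between 77.3 and 134 FPKM in the libraries given Cre, against 312 and 337 FPKM in control, and the triangle was the highest point for Ccnd1, Ccne1, Ccne2, Cdk2, Cdk4 and Cdk6.

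As a share of the summed FPKM of the D cyclins, Ccnd3 made up 47.2%, 44.0% and 54.4% in the ΔNp73-labelled libraries, 60.03%, 78.4% and 59.6% in the ΔNp63-labelled libraries and 86.1% and 84.5% in control. Ccnd2 took 47.7%, 49.9% and 40.3% in the ΔNp73-labelled libraries, 35.3%, 10.1% and 36.7% in the ΔNp63-labelled libraries and 12.8% and 14.5% in control. Each gene stood by its highest entry here. By these entries, the shares of Ccnd2 and Ccnd3 were close to each other in ΔNp73-labelled replicates 1 and 2. Ccnd3 was ahead in replicate 3, and control carried mostly Ccnd3. The entry used for Ccnd3 held 74.4%, 67.1% and 70.8% of its summed level in the ΔNp73-labelled libraries and 83.4% and 79.0% in control. Counted over all its entries, Ccnd3 was ahead of Ccnd2 in every ΔNp73-labelled library. Ccnd1 stayed the smallest share in 7 libraries, at 5.11%, 6.15% and 5.29% in the ΔNp73-labelled, 4.62% and 3.71% in ΔNp63-labelled replicates 1 and 3, and 1.14% and 1.04% in control. In ΔNp63-labelled replicate 2 it reached 11.5%, above the 10.1% of Ccnd2. The sum of the highest entries of the 3 genes was 173, 176 and 225 FPKM in the ΔNp73-labelled libraries, 175, 111 and 225 FPKM in the ΔNp63-labelled libraries and 392 and 369 FPKM in control. No test was run on shares or sums.

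**Figure D2:**
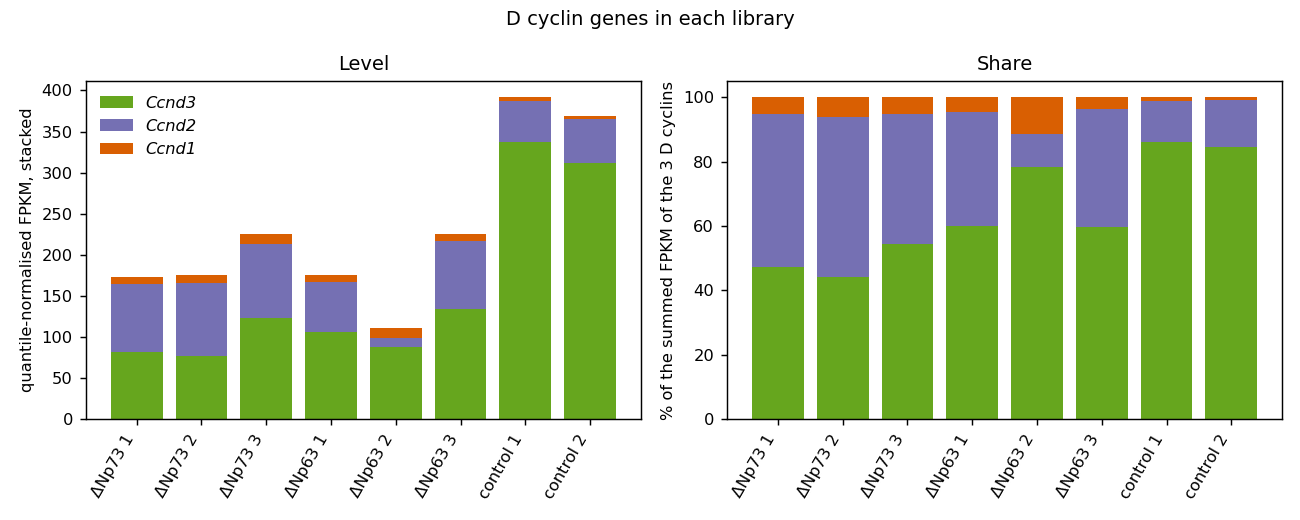
Stacked levels (left, quantile-normalised FPKM) and shares of the summed level (right, percent) of Ccnd3, Ccnd2 and Ccnd1 in each library, with ΔNp73-labelled libraries on the left, then ΔNp63-labelled and control. By the highest entry of each gene, Ccnd3 made up 44.0% to 54.4% in the ΔNp73-labelled libraries and 84.5% to 86.1% in control.

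The E cyclins lay below control in the 5 libraries given Cre other than ΔNp63-labelled replicate 2, and above it in that library. Ccne2, on chromosome 4, encodes cyclin E2 and is a classical E2F target. It was at 3.75, 3.31 and 7.88 FPKM in the ΔNp73-labelled libraries, 3.23, 38.9 and 3.45 FPKM in the ΔNp63-labelled libraries and 18.3 and 19.5 FPKM in control. The value in replicate 2 was 11.7 times the mean of the other ΔNp63-labelled libraries. With all 8 libraries the log2 fold change was -1.81 (SE 0.93, limma adjusted p = 0.3) in the ΔNp73-labelled and -1.13 (SE 0.93, limma adjusted p = 0.643) in the ΔNp63-labelled group. Without replicate 2, Ccne2 fell by 1.81 (limma adjusted p = 0.0048) and by 2.20 (limma adjusted p = 0.00486).

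Ccne1, on chromosome 7, encodes cyclin E1. It was at 3.56, 5.58 and 4.65 FPKM in the ΔNp73-labelled libraries, 3.93, 13.4 and 2.63 FPKM in the ΔNp63-labelled libraries and 8.002 and 6.56 FPKM in control. The log2 fold change was -0.58 (SE 0.53, limma adjusted p = 0.55) in the ΔNp73-labelled and -0.37 (SE 0.53, limma adjusted p = 0.808) in the ΔNp63-labelled group. Without replicate 2, Ccne1 fell in the ΔNp63-labelled comparison, by 0.96 (limma adjusted p = 0.0226), and was at -0.58 (limma adjusted p = 0.0636) in the ΔNp73-labelled one. By the highest entry of each gene, the 2 E cyclins together came to 7.31, 8.89 and 12.5 FPKM in the ΔNp73-labelled libraries, 7.16, 52.3 and 6.07 FPKM in the ΔNp63-labelled libraries and 26.3 and 26.1 FPKM in control. Another entry of Ccne2, not in these sums, held 17.1% to 42.6% of the summed level of that gene.

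Of the kinases, Cdk2 lay furthest below control and Cdk6 nearest to it in the ΔNp73-labelled libraries. Cdk2, on chromosome 10, is the partner of the E cyclins. Its level was 16.6, 15.4 and 21.6 FPKM in the ΔNp73-labelled libraries, 15.8, 42.8 and 18.3 FPKM in the ΔNp63-labelled libraries and 34.6 and 34.0 FPKM in control. Apart from replicate 2, no library given Cre reached control. The log2 fold change was -0.92 (SE 0.39, limma adjusted p = 0.234) in the ΔNp73-labelled and -0.54 (SE 0.39, limma adjusted p = 0.585) in the ΔNp63-labelled group. Without replicate 2, Cdk2 fell by 0.92 (limma adjusted p = 0.00529) and by 0.97 (limma adjusted p = 0.00841).

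Cdk4, also on chromosome 10, is a partner of the D cyclins. It was at 56.9, 66.6 and 67.2 FPKM in the ΔNp73-labelled libraries, 61.5, 112 and 62.2 FPKM in the ΔNp63-labelled libraries and 82.0 and 79.5 FPKM in control. Its range over the 5 libraries given Cre other than replicate 2 was narrow, and all lay below control. Without replicate 2, Cdk4 fell by 0.35 in the ΔNp73-labelled comparison (limma adjusted p = 0.0418) and was at -0.38 (limma adjusted p = 0.0537) in the ΔNp63-labelled one. With all 8 libraries the values were -0.35 (limma adjusted p = 0.48) and -0.10 (limma adjusted p = 0.916).

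Cdk6, on chromosome 5, is the other partner of the D cyclins and the one linked most to lymphoid cells. It was at 15.3, 17.1 and 23.3 FPKM in the ΔNp73-labelled libraries, 9.43, 66.1 and 13.97 FPKM in the ΔNp63-labelled libraries and 21.4 and 18.6 FPKM in control. The ΔNp73-labelled values spanned those of control, the ΔNp63-labelled replicates 1 and 3 lay below, and replicate 2 lay 3.31 times above the control mean. No comparison of Cdk6 with control passed the threshold, with or without replicate 2. With all libraries the log2 fold change was -0.12 (SE 0.70, limma adjusted p = 0.936) in the ΔNp73-labelled and 0.06 (SE 0.70, limma adjusted p = 0.982) in the ΔNp63-labelled group. The values without it were -0.12 (limma adjusted p = 0.692) in the ΔNp73-labelled and -0.75 (limma adjusted p = 0.0624) in the ΔNp63-labelled group. Of the summed FPKM of Cdk4 and Cdk6, Cdk6 made up 21.1%, 20.5% and 25.8% in the ΔNp73-labelled libraries, 13.3%, 37.0% and 18.3% in the ΔNp63-labelled libraries and 20.7% and 19.0% in control.

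Both pocket proteins lay below control in every library given Cre, replicate 2 included. Rb1, on chromosome 14, encodes the retinoblastoma protein. It was at 30.0, 33.0 and 35.7 FPKM in the ΔNp73-labelled libraries, 25.3, 25.9 and 28.0 FPKM in the ΔNp63-labelled libraries and 44.2 and 52.1 FPKM in control. The 3 groups did not overlap, and replicate 2 lay between the other libraries of its group. The log2 fold change was -0.53 (SE 0.14, limma adjusted p = 0.119) in the ΔNp73-labelled and -0.84 (SE 0.14, limma adjusted p = 0.152) in the ΔNp63-labelled group. Without replicate 2, Rb1 fell by 0.53 (limma adjusted p = 0.0153) and by 0.83 (limma adjusted p = 0.00643).

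Rbl1, on chromosome 2, encodes p107, a pocket protein made mainly in cycling cells and itself an E2F target, with the motif shown above in its promoter window. It was at 12.3, 14.1 and 16.2 FPKM in the ΔNp73-labelled libraries, 9.91, 18.5 and 12.5 FPKM in the ΔNp63-labelled libraries and 22.5 and 22.4 FPKM in control. Replicate 2 was the nearest to control of the 6. The log2 fold change was -0.63 (SE 0.25, limma adjusted p = 0.21) in the ΔNp73-labelled and -0.72 (SE 0.25, limma adjusted p = 0.311) in the ΔNp63-labelled group. Without replicate 2, Rbl1 fell by 0.63 (limma adjusted p = 0.016) and by 0.95 (limma adjusted p = 0.00743). The remaining pocket protein, Rbl2 (p130), which prevails in resting cells, was at 26.1, 28.5 and 26.3 FPKM in the ΔNp73-labelled libraries, 25.6, 12.6 and 33.7 FPKM in the ΔNp63-labelled libraries and 29.1 and 29.9 FPKM in control. Its log2 fold change was -0.13 (limma adjusted p = 0.857) in the ΔNp73-labelled and -0.40 (limma adjusted p = 0.678) in the ΔNp63-labelled group, and -0.13 (limma adjusted p = 0.474) and -0.01 (limma adjusted p = 0.972) without replicate 2.

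**Figure D3:**
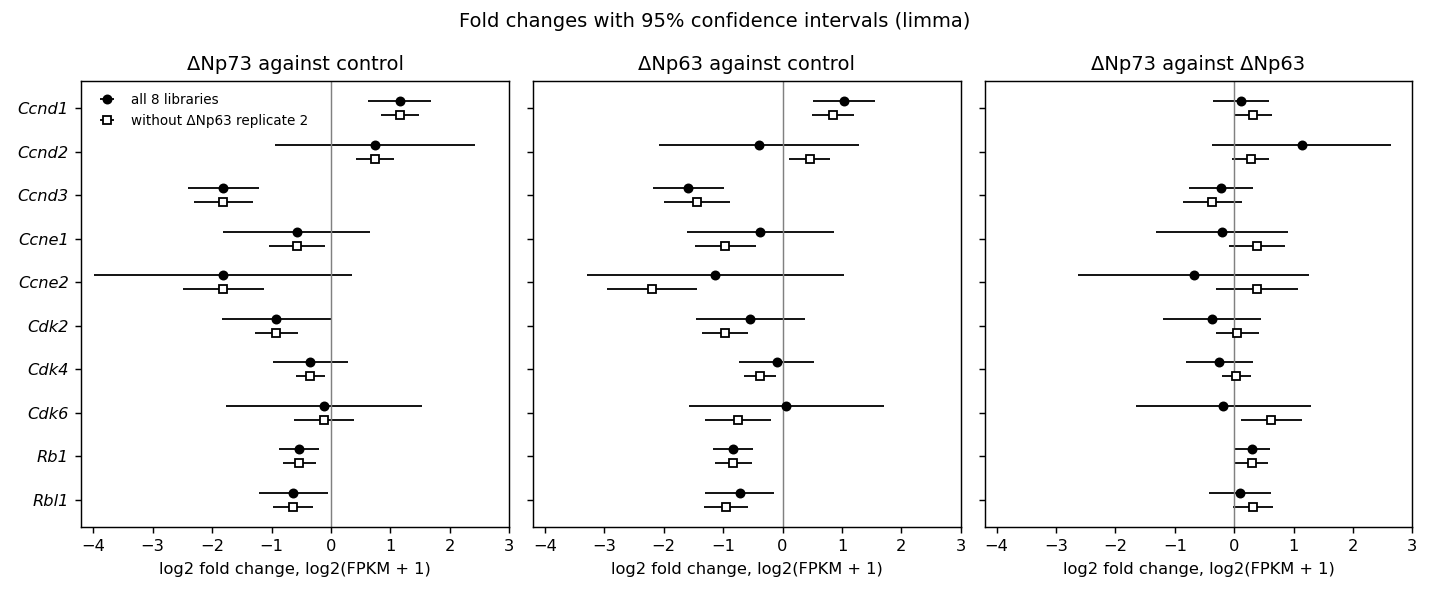
Log2 fold changes of the 10 genes on the log2(FPKM + 1) scale with 95% confidence intervals from limma, for ΔNp73-labelled against control (left), ΔNp63-labelled against control (middle) and ΔNp73-labelled against ΔNp63-labelled (right). Filled circles use all 8 libraries and open squares leave out ΔNp63-labelled replicate 2; for Ccnd2 and Cdk6 the sign in the middle panel turns without it.

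Over the 10 genes, 0 passed the threshold in any of the 3 comparisons with all 8 libraries by limma, against 0.0542% of all genes in the ΔNp73-labelled comparison with control, 0.0929% in the ΔNp63-labelled one and 0.0542% between the ΔNp73-labelled and ΔNp63-labelled groups. At an unadjusted p under 0.05, 1 of the 10 was higher and 4 were lower in the ΔNp73-labelled group than in control, where 21.3% of all genes passed. In the ΔNp63-labelled group 1 was higher and 3 were lower, where 13% of all genes passed. Without replicate 2, 2 rose (Ccnd1, Ccnd2) and 6 fell in the ΔNp73-labelled group, where 16.8% of genes rose and 16.1% fell. In the ΔNp63-labelled group 1 rose (Ccnd1) and 6 fell (Ccnd3, Ccne1, Ccne2, Cdk2, Rb1, Rbl1), where 11.7% rose and 10.8% fell. In the ΔNp73-labelled group the 6 were Ccnd3, Ccne2, Cdk2, Cdk4, Rb1 and Rbl1. A fit of only the ΔNp73-labelled and control libraries called 7, where 30.9% of all genes passed. Library weights called 8 in the ΔNp73-labelled and 9 in the ΔNp63-labelled group, where 50.8% and 34.7% of all genes passed, and 0 between these groups, where 2.66% did. The median log2 fold change of the 10 with all libraries was -0.56 in the ΔNp73-labelled group, beside -0.07 over all genes, and -0.47 in the ΔNp63-labelled group, beside -0.02.

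Counted without a test, the ΔNp73-labelled values did not overlap with control in 2 genes that were higher and 7 that were lower, all but Cdk6; of all genes, 27.7% were higher and 35.7% lower without overlap. In the ΔNp63-labelled group 1 gene was higher (Ccnd1) and 3 were lower (Ccnd3, Rb1, Rbl1) without overlap, and the shares of all genes were 12.6% and 17.7%. Without replicate 2 the ΔNp63-labelled counts were 2 and 8, but with 2 libraries against 2 the shares of all genes were also higher, at 31.7% and 37.1%.

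The ΔNp73-labelled and ΔNp63-labelled groups, which both received Cre, were told apart by few values. None of the 10 genes passed the threshold by limma, and 1 of them (Rb1) had an unadjusted p under 0.05, where 10.5% of all genes did. Ccnd2 and Rb1 were higher in every ΔNp73-labelled library than in every ΔNp63-labelled library, and 0 genes were lower, beside 10.3% and 8.58% of all genes. For Rb1 the means were 32.9 ± 2.84 FPKM in the ΔNp73-labelled and 26.4 ± 1.39 FPKM in the ΔNp63-labelled group (SD, n = 3 each), a log2 difference of 0.31 (95% confidence interval 0.00 to 0.61, limma adjusted p = 0.473). For Ccnd2 the log2 difference was 1.13 (interval -0.38 to 2.64, limma adjusted p = 0.51), and 0.28 without replicate 2 (interval -0.04 to 0.59, limma adjusted p = 0.367). Cdk6 stood at 0.63 without replicate 2 (interval 0.12 to 1.13, limma adjusted p = 0.249), with each ΔNp73-labelled value above both remaining ΔNp63-labelled ones. Without replicate 2, 0.149% of all genes passed between these groups. For Ccnd1 and Ccnd3 the intervals with all libraries ran from -0.35 to 0.59 and from -0.76 to 0.31, so differences within those limits could not be seen here.

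Ranked by the highest entry of each gene, which FPKM allows since it is per length, Ccnd3 came first in all groups. By that entry it was close to the level of Ccnd2 in the ΔNp73-labelled group, where their ranges overlapped. Over all entries of Ccnd3 the ranges did not overlap there. Cdk4 followed Ccnd2 in the ΔNp73-labelled group and preceded it in control, and Rb1 came next after these 3 genes in both, with a range that overlapped that of Ccnd2 in control. In control the lowest 3 were Ccne2, Ccne1 and Ccnd1, with Ccnd1 last and without overlap with Ccne1. In the ΔNp73-labelled group Ccnd1 was above both E cyclins without overlap, and the E cyclins overlapped with each other. Ccne2 had another entry, at 0.774, 2.46 and 3.52 FPKM in the ΔNp73-labelled libraries and 7.43 and 8.29 FPKM in control. With it added, Ccne2 overlapped with Ccnd1 in the ΔNp73-labelled group and lay above Cdk6 in control. The ΔNp63-labelled ranges, which include replicate 2, overlapped between all neighbours in the order.

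Genes around these regulators were read from lists of the E2F pathway and the cell cycle. None of the 89 pathway genes tested passed the threshold in any comparison with all 8 libraries. Without replicate 2, limma called 65 of 88 in the ΔNp73-labelled and 58 of 88 in the ΔNp63-labelled comparison with control. Of all genes in the same fits, 16.8% rose and 16.1% fell in the ΔNp73-labelled and 11.7% rose and 10.8% fell in the ΔNp63-labelled comparison. These shares belong beside each list count without replicate 2 given below. Genes that E2F switches on for S phase, such as the Mcm helicase subunits and ribonucleotide reductase, had a negative log2 fold change in 30 of 30 cases in both groups, with a median log2 fold change of -1.17 in the ΔNp73-labelled and -0.71 in the ΔNp63-labelled group. This holds for means of the logs: in linear FPKM the ΔNp63-labelled mean of Tyms, Tk1 and Fen1 was 1.19, 1.16 and 1.14 times that of control, with replicate 2 far above it. Without replicate 2, 30 fell in the ΔNp73-labelled comparison and 29 in the ΔNp63-labelled one, the exception being the mismatch repair gene Msh6. Rrm2, the regulated subunit of ribonucleotide reductase, was at 36.5, 43.4 and 62.6 FPKM in the ΔNp73-labelled libraries, 32.7, 132 and 35.1 FPKM in the ΔNp63-labelled libraries and 208 and 217 FPKM in control. Prim1, which primes DNA synthesis, was at 14.1, 13.4 and 17.9 FPKM in the ΔNp73-labelled libraries, 11.7, 64.4 and 11.3 FPKM in the ΔNp63-labelled libraries and 46.5 and 43.2 FPKM in control. In replicate 2 the list's median lay 0.43 above the control mean, with 23 of 30 genes above it, while in the other 5 libraries given Cre it lay between -0.89 and -1.38.

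All 5 cyclins and kinases of S phase and mitosis on the list fell without replicate 2 in both comparisons. Ccna2, the S-phase cyclin, fell by 1.79 in the ΔNp73-labelled group (limma adjusted p = 0.00181) and by 2.599 in the ΔNp63-labelled group (limma adjusted p = 0.00176). Mki67, a marker of cycling cells, was at 18.4, 16.9 and 34.9 FPKM in the ΔNp73-labelled libraries, 14.6, 43.8 and 14.0 FPKM in the ΔNp63-labelled libraries and 104 and 88.3 FPKM in control. It lay below control in all 6 libraries given Cre, replicate 2 among them.

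Of the 10 E2F and DP factors, 7 fell in the ΔNp73-labelled and 6 in the ΔNp63-labelled comparison without replicate 2, and 0 rose. E2f8, an atypical repressor, fell by 1.96 (limma adjusted p = 0.000871) and by 2.33 (limma adjusted p = 0.00171). E2f1, the activator best known as a target of Rb1, was at 1.87, 2.46 and 3.18 FPKM in the ΔNp73-labelled libraries, 3.00, 6.78 and 2.597 FPKM in the ΔNp63-labelled libraries and 6.16 and 5.01 FPKM in control, and fell by 0.92 (limma adjusted p = 0.00919) and by 0.79 (limma adjusted p = 0.0293) without replicate 2. Of the 9 DREAM and MuvB genes, Rbl2 among them, which repress or activate cell cycle genes, 6 fell in the ΔNp73-labelled and 5 in the ΔNp63-labelled comparison. They included Foxm1 (by 1.68 and by 2.01, limma adjusted p = 0.00249 and 0.00268) and Mybl2 (by 1.46 and by 1.55, limma adjusted p = 0.00328 and 0.00536).

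The CDK inhibitors were measured as brakes on these kinases, and 5 of 6 could be tested without replicate 2. In the ΔNp73-labelled group 4 fell and 1 rose, and in the ΔNp63-labelled group 2 fell. Cdkn1c (p57) and Cdkn2d (p19Ink4d) fell in both, Cdkn1c by 0.64 and by 0.56 (limma adjusted p = 0.00858 and 0.0255) and Cdkn2d by 0.60 and by 0.44 (limma adjusted p = 0.00521 and 0.0287). Cdkn1b (p27), which binds Cdk2 complexes, was at 47.8, 51.0 and 66.2 FPKM in the ΔNp73-labelled libraries, 64.0, 23.6 and 64.9 FPKM in the ΔNp63-labelled libraries and 85.6 and 87.9 FPKM in control. Cdkn2c (p18), an inhibitor of Cdk4 and Cdk6, was at 14.1, 7.33 and 12.1 FPKM in the ΔNp73-labelled libraries, 13.1, 36.2 and 12.5 FPKM in the ΔNp63-labelled libraries and 22.8 and 25.3 FPKM in control. Without replicate 2 both fell in the ΔNp73-labelled group, by 0.66 and 1.08 (limma adjusted p = 0.0142 and 0.0145), and were at -0.42 and -0.86 (limma adjusted p = 0.0979 and 0.0542) in the ΔNp63-labelled group. Cdkn2a, which encodes p16 and p19Arf, was at 143 FPKM in ΔNp63-labelled replicate 2 and at no more than 1.19 FPKM in any other library. Cdkn2b (p15) rose in the ΔNp73-labelled group, by 0.60 (limma adjusted p = 0.0162), with levels of 1.75, 2.20 and 1.95 FPKM against 1.06 and 0.842 FPKM in control. Of the 16 genes for CDK activation and the turnover of G1 regulators, 7 fell in the ΔNp73-labelled and 6 in the ΔNp63-labelled comparison, and 0 rose. Skp2, which marks p27 for degradation, fell by 1.46 (limma adjusted p = 0.000838) and by 1.68 (limma adjusted p = 0.00171).

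**Figure D4:**
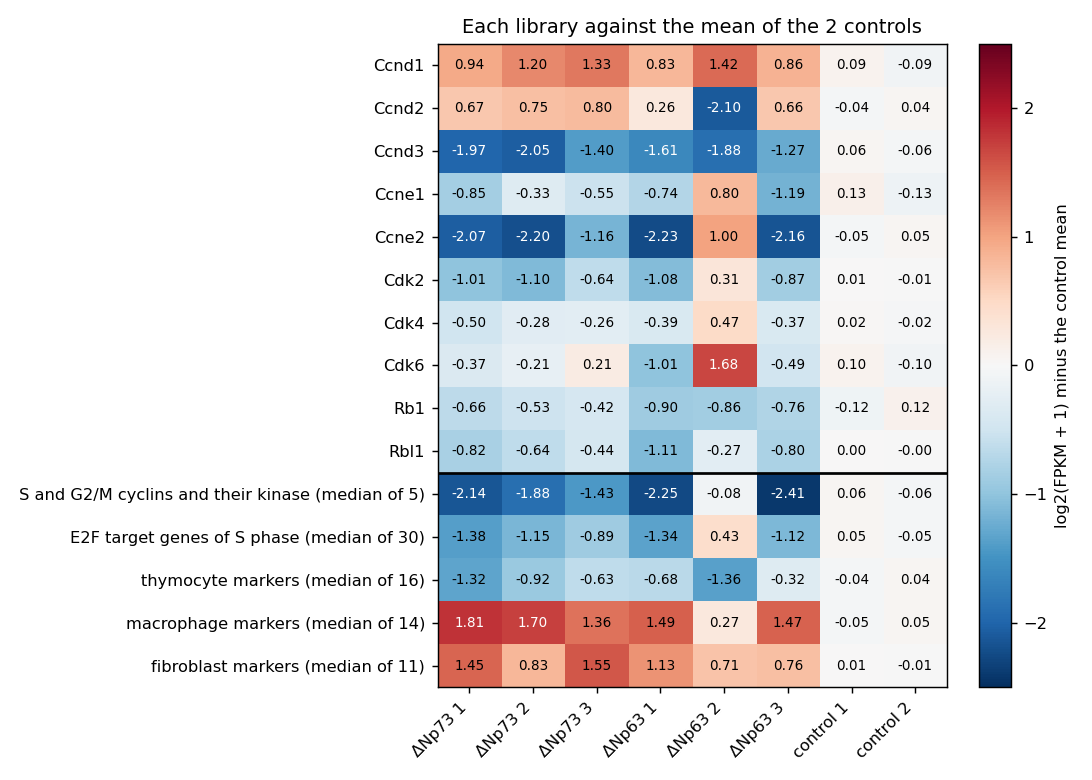
Difference of each library from the mean of the 2 controls on the log2(FPKM + 1) scale (colour and printed value) for the 10 genes, above the line, and for the median of each of 5 gene lists, below it, with ΔNp73-labelled libraries on the left, then ΔNp63-labelled and control. The E2F target median was 0.43 in ΔNp63-labelled replicate 2 and between -0.89 and -1.38 in the other libraries given Cre, while Ccnd3, Rb1 and Ccnd1 in replicate 2 lay on the same side of control as in those libraries.

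The cell type markers moved as well, and in a bulk tumour fewer cells of a type and less RNA per cell cannot be told apart. The summed FPKM of 16 thymocyte markers was 2952 to 4774 in the ΔNp73-labelled, 2973 to 5265 in the ΔNp63-labelled and 6576 to 7388 in the control libraries. Cd3e, a chain of the T cell receptor complex, was at 235 FPKM or more in each of the 8 libraries. Of the genes of receptor rearrangement and of the pre-T cell receptor, Rag1, Rag2 and Ptcra were far lower in ΔNp63-labelled replicate 2 than in the other 7. There Rag1 was at 51.9 FPKM, against 308 to 965 FPKM in the others, Rag2 at 1.99, against 20.4 to 72.3, and Ptcra at 0.401, against 2.43 to 13.4. Dntt, another such gene, went the other way, at 351 FPKM in replicate 2, against 72.1 to 308 FPKM in the others. Whether replicate 2 is of the same kind of tumour as the others was not tested. With all libraries 16 of 16 thymocyte markers had a negative log2 fold change in both comparisons and 0 passed the test. This holds for means of the logs: in linear FPKM the mean of Lef1 was 178.7 in both the ΔNp73-labelled and the control group. Single libraries could lie above both controls, such as Cd3d at 194 FPKM in ΔNp63-labelled replicate 3, against 159 and 178 FPKM. Without replicate 2, 10 fell in the ΔNp73-labelled and 3 in the ΔNp63-labelled group, Thy1 and Bcl11b among both, where 16.1% and 10.8% of all genes fell. The 14 macrophage markers summed to 1090 to 1441 FPKM in the ΔNp73-labelled, 466 to 1199 in the ΔNp63-labelled and 415 to 469 in the control libraries, with replicate 2 as the lowest of its group. None passed with all libraries by limma, with 14 and 10 of them higher at an unadjusted p under 0.05. Without replicate 2, 14 of 14 rose in the ΔNp73-labelled and 13 of 14 in the ΔNp63-labelled comparison, for example Csf1r by 1.78 and by 1.45 (limma adjusted p = 0.000602 and 0.00176). The 11 fibroblast markers summed to 242 to 339 FPKM in the ΔNp73-labelled, 123 to 230 in the ΔNp63-labelled and 86.2 to 89.2 in the control libraries, and 9 and 4 of them rose without replicate 2. With all libraries 1 marker, Col1a2, passed the test in the ΔNp73-labelled comparison. No marker of these 3 lists was at 0 in all libraries. The part of these markers in the lower Ccnd3, Rb1 and S-phase genes and in the higher Ccnd1 was not tested.

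Genes whose pattern over the 8 libraries was most like that of a D cyclin were found by the smallest root mean square difference of the centred log2(FPKM + 1), among 11528 genes. For Ccnd1 they were Ctsk (0.164), Gusb (0.167) and Erp29 (0.178). For Ccnd2 they were Cd226 (0.124), Dynlt3 (0.143) and Synm (0.147), and Cd226 was at 13.0, 14.7 and 13.4 FPKM in the ΔNp73-labelled libraries, 11.1, 1.61 and 13.7 FPKM in the ΔNp63-labelled libraries and 8.27 and 8.24 FPKM in control. For Ccnd3 they included Rnf157 (0.192) and Tmem151b (0.195), and Rnf157 was at 5.64, 5.53 and 8.01 FPKM in the ΔNp73-labelled libraries, 7.68, 5.87 and 10.1 FPKM in the ΔNp63-labelled libraries and 18.6 and 18.0 FPKM in control. These values describe likeness over the 8 libraries, which share their group structure.

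The 10 genes had 15 transcript entries, 4 genes having more than 1. Ccnd3 had an entry that starts at the downstream start shown above and 2 that start upstream. The downstream entry held 67.1% to 83.4% of the summed FPKM of Ccnd3. The stronger upstream entry was at 23.4, 28.6 and 43.2 FPKM in the ΔNp73-labelled libraries, 41.9, 15.99 and 35.5 FPKM in the ΔNp63-labelled libraries and 57.5 and 74.1 FPKM in control, below control in all 6 libraries given Cre as the downstream one was. The entries of Cdk2 encode 298 and 346 amino acids in the annotation, and the shorter form held 73.9% to 83.9% of the summed level. How fragments were divided between overlapping entries is not given in the sources used here, and neither is the use of strand. Exons of 8 of the 10 genes overlap those of a gene on the opposite strand, all but Ccne1 and Rbl1, so reads of such a pair cannot be told apart without strand. With all 8 libraries the partner of Ccnd3, Bysl, had a log2 fold change of -0.26 in the ΔNp73-labelled and 0.09 in the ΔNp63-labelled group (limma adjusted p = 0.449 and 0.873). The partner of Cdk4, Tspan31, lay in the other direction to Cdk4, at 0.97 and 0.88 (limma adjusted p = 0.0949 and 0.219). The partners of Rb1 were Lpar6, at 0.04 and 0.12 (limma adjusted p = 0.947 and 0.905), and Rcbtb2, at -0.57 and -0.16 (limma adjusted p = 0.326 and 0.874). Without replicate 2, Bysl passed in neither comparison (limma adjusted p = 0.0744 and 0.648). Tspan31 rose in both, by 0.97 and 1.08 (limma adjusted p = 0.00161 and 0.00224), Rcbtb2 fell in both, by 0.57 and by 0.49 (limma adjusted p = 0.016 and 0.0478), and Lpar6 rose in the ΔNp63-labelled group, by 0.46 (limma adjusted p = 0.0309). The partner of Ccne2, Ints8, is given by level only. It was at 11.1, 12.6 and 14.5 FPKM in the ΔNp73-labelled and 11.2, 14.5 and 12.6 FPKM in the ΔNp63-labelled libraries. In control it was at 13.3 and 16.7 FPKM. Apart from replicate 2, Ints8 lay above the highest entry of Ccne2 in every library given Cre.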

How the data were processed

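Total RNA of 8 thymic lymphomas was extracted with TRIZOL LS and made into libraries with an Illumina TruSeq RNA kit, per the labels' protocols. TopHat2 2.0, Cufflinks 2.0 and mouse build mm9 are named in the submitters' processing notes, without the step each served. The authors deposited 1 table of FPKM per RefSeq transcript entry, quantile-normalised between libraries: of 16589 ranks of sorted values, 86.0% were equal within 1% in all libraries. All libraries are thereby given nearly 1 distribution, which hides any change in total RNA. No counts are given, so depth is unknown and no counting interval can be formed.

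The entry with the highest mean stood for each symbol, and symbols reaching 1 FPKM in 2 or more libraries entered the test (12921, or 12782 without ΔNp63-labelled replicate 2). Values were analysed as log2(FPKM + 1), which understates the change of low genes, with limma 3.58.1 in R 4.3.3 (a model of 3 groups, two-sided, with moderated variances that follow the mean level and 5 residual degrees of freedom for 8 libraries) and Benjamini-Hochberg adjustment over all symbols tested, with a threshold of 0.05. The same code was tested on simulated data. Replicates are numbered in accession order, and the labels give no pairs or batches. Alternatives were another pseudocount, other filters, summed entries, only the groups compared, library weights, no trend, and each library left out.

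The members and lists were chosen with earlier results of these data known. Named were all members; of each list the genes past the threshold, or the 4 with the smallest p where none or over 4 passed; Rbl2, E2f1, Cdkn1b, Cdkn2a, Cdkn2c, Myc, Mki67 and Trp63; and the 3 genes most like each D cyclin, of which 1 is not reported here. Msh6, Tyms, Tk1, Fen1, Cd3e, Rag1, Rag2, Ptcra, Dntt, Cd226, Rnf157 and genes overlapping a member are named beyond this or with more detail after their values were seen. Endothelial, B cell and thymic epithelial markers were also read.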

Additional observations from a re-analysis of the deposited data

How the results depend on the processing

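ΔNp63-labelled replicate 2 decided most calls. Leaving out each library in turn gave 0 to 8 members called in the ΔNp73-labelled comparison with control, 0 to 7 in the ΔNp63-labelled one and 0 to 0 between these groups; the counts of pathway genes ran from 0 to 65, from 0 to 58 and from 0 to 0, and all the highest values came without that replicate. Library weights, which give that replicate less weight, called 8 and 9 members and 72 and 71 pathway genes against control, and 2 pathway genes between the ΔNp73-labelled and ΔNp63-labelled groups; of all genes they called 50.8%, 34.7% and 2.66%. A fit of only the ΔNp73-labelled and control libraries called 7 members and 64 pathway genes, and 30.9% of all genes. Another pseudocount (0.1), no filter, a mean FPKM of at least 5, summed entries and no trend called 0 members in each comparison. Ccnd1, Ccnd3, Rb1, Rbl1, Cdk2 and Ccne2 kept their sign against control under all alternatives run. With all libraries but 1, log2 fold changes that changed sign ran, for the ΔNp63-labelled group against control, from -0.92 to 0.46 (Ccnd2), -0.96 to 0.031 (Ccne1), -0.38 to 0.051 (Cdk4) and -0.75 to 0.60 (Cdk6), and for the ΔNp73-labelled group against control from -0.29 to 0.0032 (Cdk6). Between the ΔNp73-labelled and ΔNp63-labelled groups they ran from -0.61 to 0.39 (Ccne1), -1.23 to 0.39 (Ccne2), -0.64 to 0.055 (Cdk2), -0.40 to 0.034 (Cdk4), -0.72 to 0.63 (Cdk6) and -0.10 to 0.32 (Rbl1). Library weights turned Ccnd2 to 0.34 and Cdk6 to -0.78 in the ΔNp63-labelled comparison with control, and Ccne1 to 0.44, Ccne2 to 0.10, Cdk4 to 0.065 and Cdk6 to 0.61 between the ΔNp73-labelled and ΔNp63-labelled groups. The 3 groups of the model share an estimate of the spread, so replicate 2 also enters the SE of the ΔNp73-labelled comparison with control. For Ccnd2 that log2 fold change was 0.74 with and without replicate 2, while its SE was 0.72 with it and 0.13 without it. Beyond this and fewer or less weighted libraries, the cause was not tested. Without 1 control, the other is assumed to vary like the other groups. No paired analysis was possible because the labels carry no replicate numbers. The 2 controls and unknown depth limit all comparisons.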

Other observations

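Genes upstream of the D cyclins were read as a list of 13 (Mycn had no row used here). None passed the test by limma with all 8 libraries, and at an unadjusted p under 0.05 there were 3 lower and 0 higher in the ΔNp73-labelled and 4 lower and 0 higher in the ΔNp63-labelled comparison with control. Without ΔNp63-labelled replicate 2, 2 rose and 3 fell in the ΔNp73-labelled group and 3 rose and 2 fell in the ΔNp63-labelled group. Among all genes 16.8% rose and 16.1% fell in the ΔNp73-labelled and 11.7% rose and 10.8% fell in the ΔNp63-labelled comparison, so with 13 genes these counts are near the background, and the genes are given as single values only. Hes1, a Notch target, was at 22.0, 21.1 and 17.7 FPKM in the ΔNp73-labelled libraries, 21.9, 6.99 and 22.7 FPKM in the ΔNp63-labelled libraries and 13.2 and 11.4 FPKM in control. Il7r, the receptor of a cytokine that sustains lymphoid growth, was at 34.2, 46.7 and 33.5 FPKM in the ΔNp73-labelled libraries, 34.3, 4.27 and 46.6 FPKM in the ΔNp63-labelled libraries and 23.1 and 21.4 FPKM in control. Both rose without replicate 2, Hes1 by 0.67 and 0.81 (limma adjusted p = 0.00722 and 0.0073) and Il7r by 0.74 and 0.82 (limma adjusted p = 0.0233 and 0.0301). Ikzf1, which encodes the lymphoid regulator Ikaros, and Notch1 fell in both comparisons without it, Ikzf1 by 0.56 and 0.64 (limma adjusted p = 0.0226 and 0.0267) and Notch1 by 0.46 and 0.49 (limma adjusted p = 0.0239 and 0.0361). Il2ra, a chain of the interleukin-2 receptor, rose in the ΔNp63-labelled group, by 0.90 (limma adjusted p = 0.0113), and Stat5b, which carries such cytokine signals, fell in the ΔNp73-labelled group, by 0.69 (limma adjusted p = 0.00858). Myc was at 92.3 FPKM in replicate 2 and between 15.4 and 21.7 FPKM in the other 7 libraries.

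Replicate 2 was also lowest of all libraries in the summed markers of thymic epithelial cells and of B cells. The summed FPKM of 6 thymic epithelial markers was 382 to 549 in the ΔNp73-labelled libraries and 379 to 404 in control. In the ΔNp63-labelled libraries it was 50.2 to 529, with replicate 2 lowest. Without replicate 2, 2 of them (Epcam, Krt5) rose in the ΔNp73-labelled and 1 (Epcam) in the ΔNp63-labelled comparison, and 0 fell. The list was split, with a negative log2 fold change in 2 of the 6 in each of these comparisons. Psmb11 and Prss16 lay below both controls in every ΔNp73-labelled library. For Psmb11 the levels there were 6.18, 9.64 and 6.66 FPKM, against 14.2 and 11.9 FPKM in control. The summed FPKM of 6 B cell markers was 42.1 to 47.4 in the ΔNp73-labelled, 5.09 to 67.1 in the ΔNp63-labelled and 32.6 to 34.6 in the control libraries. Of these, 0 passed the test by limma without replicate 2, with 1 and 3 at an unadjusted p under 0.05. Of 9 endothelial markers, 5 rose in the ΔNp73-labelled and 2 in the ΔNp63-labelled comparison without replicate 2. With all 8 libraries, none of the thymic epithelial, B cell and endothelial markers passed the test in either comparison with control.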
